A study of Homo sapiens with 12 samples.

Results

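The potassium channel genes of NCI-H1299, a cell line long in use that came from a human lung cancer of non-small cell type, were followed through 2 culture forms and the tumours grown from them. They were taken as every gene whose single platform symbol begins with KCN, and antisense and overlapping transcripts (10 of them) were left out. This gave 87 of the 19775 genes that the Affymetrix U133 Plus 2.0 arrays measured under a single symbol, and each gene was read on its brightest probe set by mean value across 12 arrays. The 87 genes fall by name into 13 inward rectifiers, 14 tandem-pore channels, 25 voltage-gated pore subunits, 10 silent voltage-gated subunits, 7 calcium- or sodium-activated pore subunits, 17 auxiliary subunits and KCNQ1DN, a non-coding RNA.

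Each of the 4 groups held 3 arrays. The parental culture was the line grown in medium with serum. The spheroid culture was made from it by keeping monolayers in a stem-cell medium and moving the cells that floated into flasks to which cells hardly attach. The parental xenografts and the spheroid xenografts were tumours grown from the parental and from the spheroid cells. All groups derive from this 1 line, and the labels name no added gene or drug. The labels call the 3 samples of each group biological replicates. They name no host for the tumours and do not say whether each came from an animal of its own. P-values thus measure only the spread between these samples, which for the tumours may not be that between animals.

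Potassium channels let potassium leave or enter the cell along the gradient that the sodium-potassium pump builds, and so set the resting membrane potential. Pore subunits open with voltage, with calcium or sodium inside the cell, or conduct at rest as inward rectifiers and tandem-pore leak channels, while silent and auxiliary subunits change the channels of other pore subunits. In tumour cells potassium channels are known for roles in cell volume, in the driving force for calcium entry and in passage through the cell cycle.

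KCNJ2 was the KCN gene whose level differed most between groups. It encodes a strong inward rectifier that sets the resting potential of heart and skeletal muscle cells. It was high in the parental xenografts and lower in the other 3 groups. Together with KCNF1 and KCNG3, which encode silent voltage-gated subunits, it lay above background in the parental xenografts and in no other group. The promoters of these 3 genes are shown because their levels share that pattern. They are RefSeq sequences of GRCh38.p14 in windows of 300 bases that end shortly after the annotated start, read along the gene's strand, and capitals mark each GGGCGG, the GC box bound by SP1, searched on both strands.
KCNJ2, chr17:70169282-70169581, plus strand: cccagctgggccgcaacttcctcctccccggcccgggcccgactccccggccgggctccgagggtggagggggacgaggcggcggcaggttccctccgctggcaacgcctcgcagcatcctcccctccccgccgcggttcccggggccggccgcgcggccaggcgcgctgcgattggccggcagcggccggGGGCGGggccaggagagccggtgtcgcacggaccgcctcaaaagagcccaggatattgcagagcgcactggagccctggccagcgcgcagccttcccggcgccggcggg
KCNF1, chr2:10911684-10911983, plus strand: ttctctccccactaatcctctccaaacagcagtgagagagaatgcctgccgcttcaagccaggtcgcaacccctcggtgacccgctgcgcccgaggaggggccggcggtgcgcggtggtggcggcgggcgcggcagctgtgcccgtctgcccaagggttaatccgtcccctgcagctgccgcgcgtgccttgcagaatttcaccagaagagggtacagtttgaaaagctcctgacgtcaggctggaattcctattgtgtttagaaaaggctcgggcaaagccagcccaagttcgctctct
KCNG3, chr2:42493933-42494232, minus strand: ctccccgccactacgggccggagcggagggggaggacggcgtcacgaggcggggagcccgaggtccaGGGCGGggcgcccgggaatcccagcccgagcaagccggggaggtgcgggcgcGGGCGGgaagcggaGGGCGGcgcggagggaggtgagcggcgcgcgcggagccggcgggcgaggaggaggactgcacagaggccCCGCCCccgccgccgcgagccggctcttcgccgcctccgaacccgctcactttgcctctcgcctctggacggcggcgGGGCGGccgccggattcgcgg

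GC content was 78.0% in the KCNJ2 window, 61.3% in that of KCNF1 and 80.0% in that of KCNG3. The windows held 39, 22 and 49 CpG dinucleotides in that order. GGGCGG occurred 1 time in the KCNJ2 window and 5 times in the KCNG3 window, and these letters were not in the KCNF1 window. A promoter was given for 68 of the 87 KCN genes. Of these, 63.2% held GGGCGG on either strand, against 44.6% of all 27305 promoters of the same length. TATAAA, the TATA box, was in 6 of the 68 KCN promoters (8.82%) and in 3264 of all 27305. ACGTG, the core of the hypoxia response element, was in 17.6% and 21.6%, and CAGGTG, an E-box that SNAI1 and SNAI2 bind, was in 19.1% and 20.6%. The median GC content was 65.8% in KCN promoters and 58.3% in all promoters. Among KCN promoters it was 70.3% for the 17 whose gene lay above background and 64.3% for the other 51. A match to a motif describes the letters in the window and no binding, and these shares carry no test.

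All values are deposited log2 expression values. On the arrays as a whole, medians ran from 5.85 to 6.03 and interquartile ranges from 2.82 to 3.44, and the widest arrays of the parental groups were parental culture 2 and parental xenograft 3. Background was set on each array at the 95th percentile of 102 olfactory receptor genes, which are little used outside the nose. It ran from 6.45 to 7.02. A gene was counted as above background in a group when it exceeded this level on all 3 arrays. Vimentin (VIM) and keratin 18 (KRT18), which this line expresses, were above background in all 4 groups. Keratin 8 (KRT8) was above it in all but the parental xenografts, where parental xenograft 2 read 6.66.

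Most KCN genes stayed within the background range. In at least 1 group 20 of the 87 (23.0%) lay above background, against 52.9% of all genes, and the other 67 lay above it in none. The count depends on the level chosen: it was 35 with each array's median as the level, and 0 with the 99th percentile of the olfactory receptor genes. Counts by group were 12 KCN genes in the parental culture, 15 in the spheroid culture, 15 in the parental xenografts and 13 in the spheroid xenografts. The matching shares were 13.8%, 17.2%, 17.2% and 14.9%, against 47.1%, 47.8%, 49.1% and 49.6% of all genes. Of the 20, 7 were above background in all 4 groups, 7 in 3 groups and 6 in a single group. By class, 4 of 7 calcium- or sodium-activated pore subunits lay above background, as did 5 of 17 auxiliary subunits, 3 of 10 silent subunits, 3 of 13 inward rectifiers, 2 of 14 tandem-pore channels and 2 of 25 voltage-gated pore subunits. KCNH3, a voltage-gated pore subunit, was the gene nearest to the rule from below. In the spheroid culture it read 7.01, 7.32 and 6.89 against backgrounds of 7.02, 6.94 and 6.69. Its highest group mean was 7.09 ± 0.35 (SD, n = 3), in the parental culture.

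**Figure D1:**
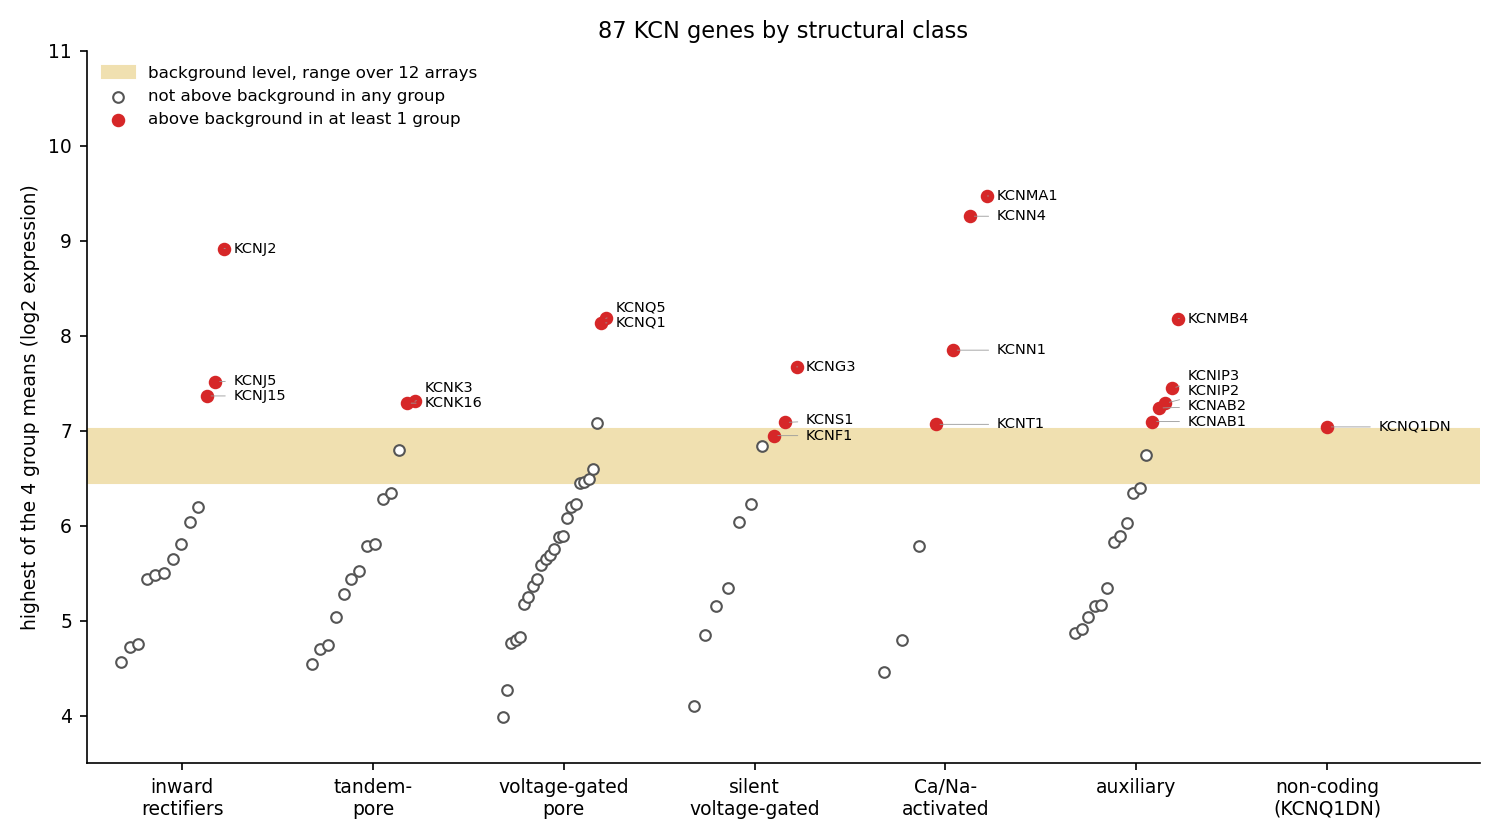
Highest of the 4 group means (log2 expression, vertical axis) of each of the 87 KCN genes, 1 point a gene, set out by structural class along the horizontal axis. The 20 genes above background in at least 1 group are marked apart from the other 67, and the band shows the background of the arrays, 6.45 to 7.02.

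The 7 genes above background on all 12 arrays were KCNN4, KCNQ1, KCNN1, KCNJ5, KCNJ15, KCNIP2 and KCNK3. Of these, KCNN4 varied between groups by 1.46 between its highest and lowest group mean. For the other 6 that range was between 0.19 for KCNN1 and 0.39 for KCNK3. Their group means ran from 7.80 to 8.14 for KCNQ1, a voltage-gated subunit of heart and epithelia, and from 7.66 to 7.85 for KCNN1, a small-conductance calcium-activated subunit. KCNJ5, a G protein-gated inward rectifier, had means from 7.24 to 7.52, and KCNJ15, an inward rectifier of kidney, from 7.15 to 7.37. KCNIP2, which binds voltage-gated subunits of the KCND family, had means from 7.03 to 7.29, and KCNK3, an acid-sensitive leak channel, from 6.92 to 7.31. None of these 6 was called in any comparison. Probe sets differ in brightness, so these values do not order the genes by abundance. For KCNJ15 and KCNIP2 the place above background rests on the probe set used, since their other probe sets lay above it in no group. Some margins were small: KCNIP2 read 6.54 in parental culture 2, whose background was 6.48. KCNK3 read 6.96 in parental culture 1, whose background was 6.93.

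Differences between groups were tested with limma over all 19775 genes and called at an adjusted p (Benjamini-Hochberg) under 0.05, two-sided. The standard error of a difference had a median of 0.20 over all genes. The first question was whether the spheroid cells differed from the parental cells in culture. No KCN gene was called, while 487 of all genes (2.46%) were. At an unadjusted p under 0.05 limma gave 8 KCN genes (9.20%), 3 higher and 5 lower in spheroids, against 14.0% of all genes. The median difference was 0.08 over the KCN genes and 0.07 over all genes, and 4 of the 87 (4.60%) differed by at least 1, against 3.64% of all genes.

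The second question was whether the tumours of the spheroid cells differed from those of the parental cells. KCNJ2 was lower in the spheroid xenografts and was the only KCN gene called, where 46 of all genes (0.233%) were called. At an unadjusted p under 0.05 there were 5 KCN genes (5.75%), all 5 lower in the spheroid xenografts, against 7.34% of all genes. These were KCNJ2, KCNN4, KCNMB4, KCNG3 and KCND1. The median difference was -0.01 over the KCN genes and 0.02 over all genes.

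Each kind of tumour was also set against its own culture. In the parental arm KCNJ2 was higher in the xenografts and again the only KCN gene called, where 687 of all genes (3.47%) were called. At an unadjusted p under 0.05 the parental arm held 6 KCN genes (6.90%), 3 higher and 3 lower, against 14.3% of all genes. In the spheroid arm no KCN gene was called, where 4 of all genes (0.0202%) were called. There limma gave 2 KCN genes (2.30%) at an unadjusted p under 0.05, both lower in the xenografts, against 7.39% of all genes.

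The difference between the arms, spheroid minus parental for the change from culture to xenograft, was tested as an interaction. No KCN gene was called, while 27 of all genes (0.137%) were. At an unadjusted p under 0.05 limma gave 5 KCN genes (5.75%), 1 above and 4 below 0, against 7.41% of all genes. The standard error of this interaction had a median of 0.28. The comparisons share groups of arrays: the parental xenografts enter both comparisons in which KCNJ2 was called.

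Among the inward rectifiers, KCNJ2 read 6.69, 6.10 and 5.84 in the parental culture and 4.97, 4.99 and 4.56 in the spheroid culture. It read 9.55, 9.33 and 7.88 in the parental xenografts and 5.11, 4.67 and 4.64 in the spheroid xenografts. All 3 parental xenografts lay above every other array, and the parental culture lay between them and both spheroid groups. The means were 8.92 ± 0.91 (SD, n = 3) in the parental xenografts, 6.21 ± 0.44 in the parental culture, 4.84 ± 0.24 in the spheroid culture and 4.81 ± 0.26 in the spheroid xenografts.

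Between the tumours KCNJ2 was lower in the spheroid xenografts by a log2 difference of -4.11 (SE 0.37, limma adjusted p = 8.46e-04), with a 95% interval from -4.92 to -3.30. From culture to xenograft it rose in the parental arm by 2.70 (SE 0.37, limma adjusted p = 0.00285), with an interval from 1.89 to 3.52. These are a ratio of 17.3 and of 6.52 of the group means. The groups that read low lay below background, where a probe set follows its target poorly. With the background level of the arrays in place of the low reading, the mean of KCNJ2 was 4.55-fold higher in the parental than in the spheroid xenografts. It was 4.37-fold higher than in the parental culture. These folds make no allowance for the spread of the arrays.

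Between the cultures the KCNJ2 groups did not overlap, and the spheroid minus parental difference was -1.37 (SE 0.37, limma adjusted p = 0.0814), which missed the threshold. All 6 of these arrays lay below background. From spheroid culture to spheroid xenograft the difference was -0.03 (SE 0.37, limma adjusted p = 0.993), with an interval from -0.84 to 0.78, and the groups overlapped. Both means lay at or just under the olfactory receptor medians of the arrays, which ran from 4.84 to 5.19. The interaction was -2.74 (SE 0.53, unadjusted p = 2.29e-04, limma adjusted p = 0.0794). With the replicate number as a block the adjusted p of the culture difference was 0.0274 and that of the interaction 0.0377. When the block was fitted to the 6 arrays of the cultures alone, their difference had an adjusted p of 0.0730 and did not pass. The labels do not say whether the numbers pair the arrays. Between the cultures, deviations of same-numbered arrays from their group means had correlations of 0.33, -0.24 and -0.30. Without parental xenograft 3, and with no block, the adjusted p was 0.0142 for the culture difference and 0.00551 for the interaction. Without parental culture 1 the interaction also passed.

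Both calls rested on the parental xenografts, of which parental xenograft 3 read lowest. The tumour difference was called in all 12 fits that left out 1 array, with an adjusted p of at most 0.0119, and the parental rise with at most 0.0182. Without the array of narrowest interquartile range in each group the tumour difference was -3.73 (adjusted p = 0.0501). In a fit to the 6 parental arrays alone the rise had an adjusted p of 0.0590. KCNJ2 had 1 probe set on these arrays, so no second probe set bears on it.

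**Figure D2:**
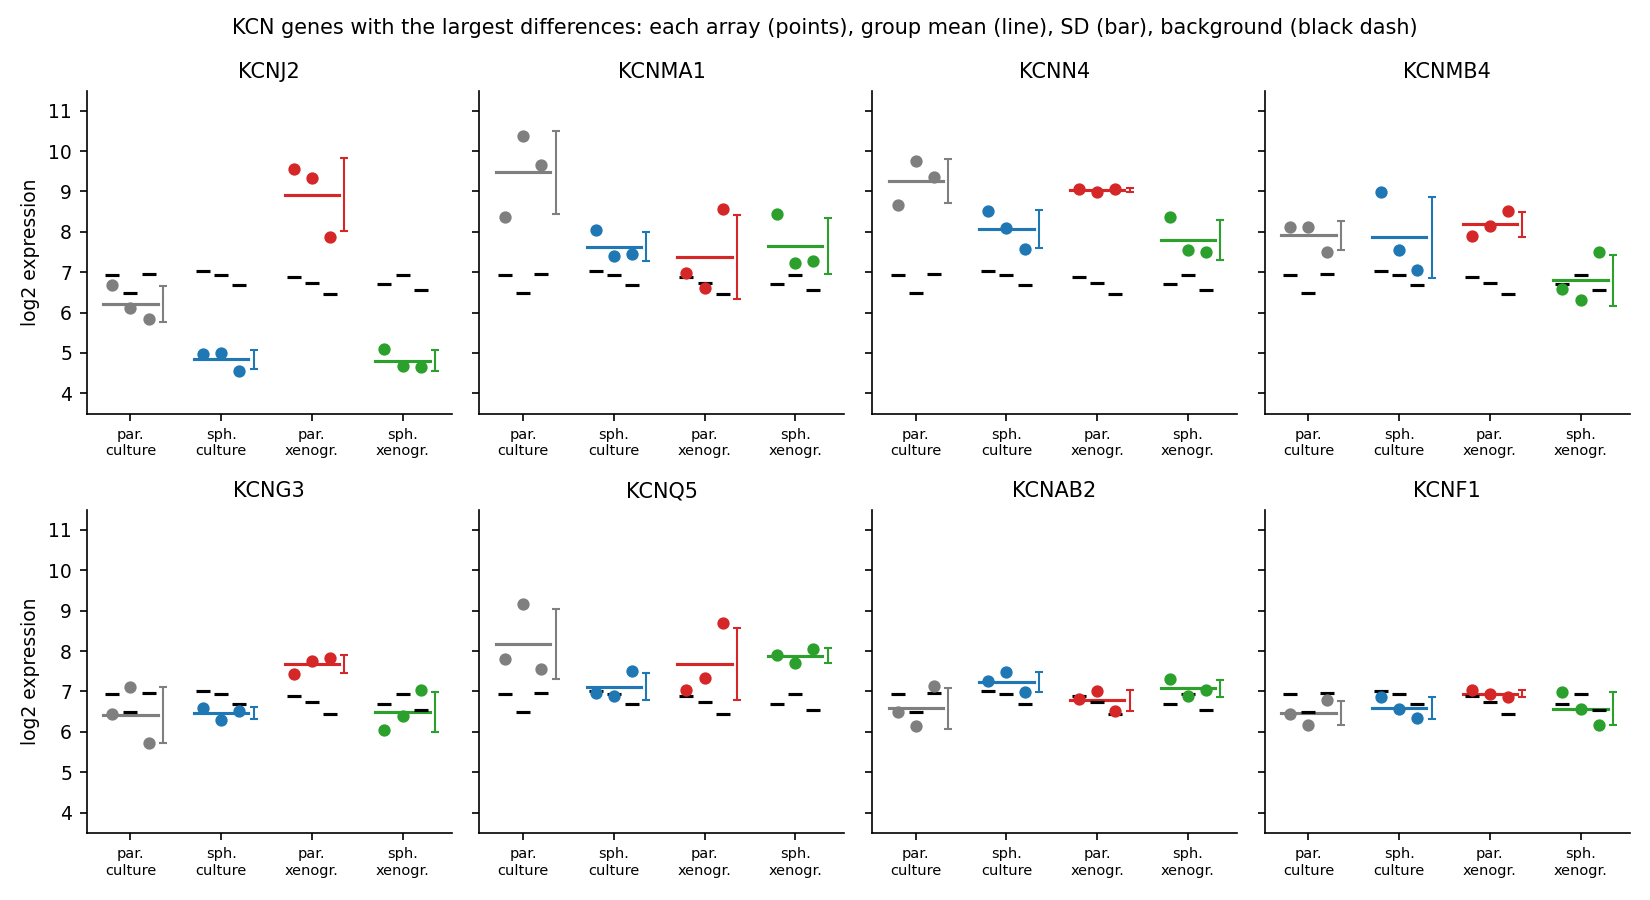
Log2 expression (vertical axis) of the KCN genes with the largest differences in each of the 12 arrays, by group along the horizontal axis. Points are arrays, lines are group means, bars are SDs (n = 3) and black dashes are the background of each array. KCNJ2 lies above background only in the 3 parental xenografts, from 7.88 to 9.55.

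Of the other 12 inward rectifiers, KCNJ5 and KCNJ15 lay above background and 10 did not. KCNJ8, the pore of vascular ATP-sensitive channels, was under background on every array. Its means were 6.03 in the parental culture, 5.48 in the spheroid culture, 5.57 in the parental xenografts and 5.28 in the spheroid xenografts. KCNJ16, an inward rectifier of kidney and glia, lies near KCNJ2 on chromosome 17, and its group means ran from 4.49 to 4.57.

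3 genes of the KCNJ2 neighbourhood were listed, with KCNJ16 and MAP2K6 on one side of KCNJ2 and SOX9 on the other. MAP2K6, a kinase that activates p38, read 8.05, 7.45 and 5.82 in the parental xenografts and between 5.21 and 5.98 on the other 9 arrays. Parental xenografts 1 and 2 stood above all other arrays, and the third did not. MAP2K6 differed by 1.52 (SE 0.44, limma adjusted p = 0.0872) from parental culture to xenograft and by -1.39 (SE 0.44, adjusted p = 0.317) between the tumours, so neither passed. SOX9, a transcription factor of developing lung, was above background in all groups, with means from 10.51 to 11.22, and was called in no comparison. These 3 genes were listed for their position alone.

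**Figure D3:**
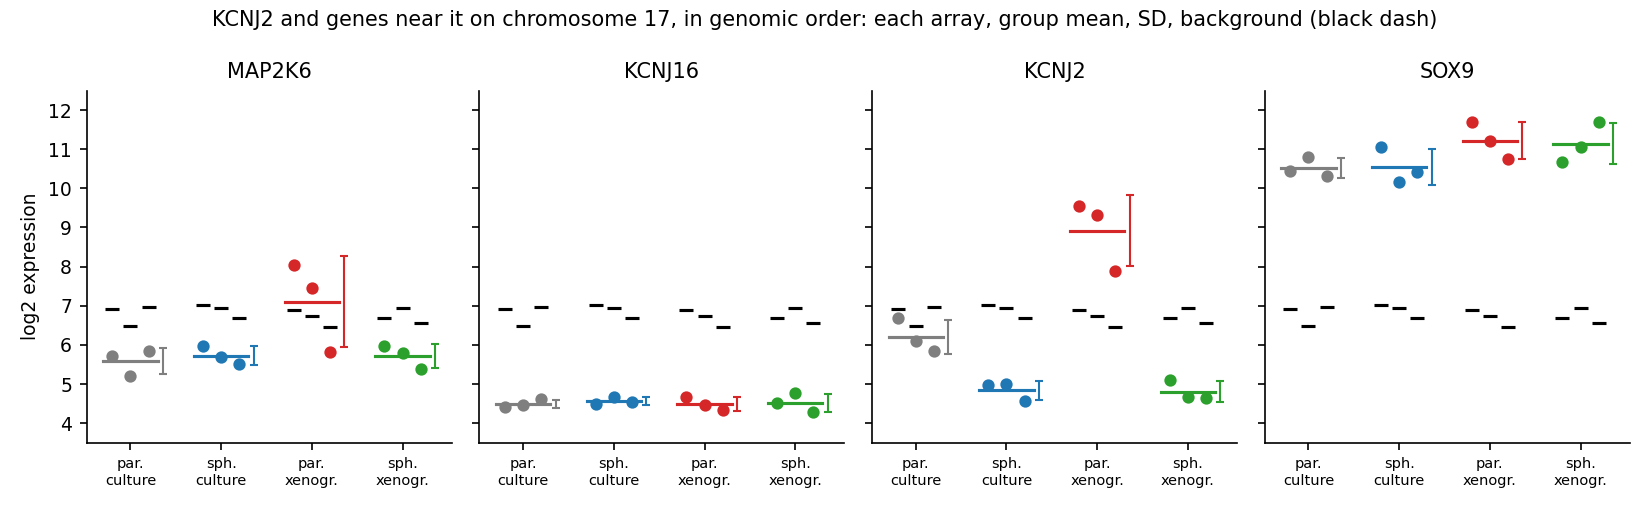
Log2 expression (vertical axis) of KCNJ2 and the 3 listed genes near it on chromosome 17, in genomic order, by group along the horizontal axis. Points are arrays, lines group means, bars SDs (n = 3) and black dashes the background; MAP2K6 is high in 2 of the 3 parental xenografts, while KCNJ16 stays between 4.29 and 4.76 on every array.

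Among the calcium-activated channels, KCNN4 and KCNMA1 carried the largest differences. KCNN4, the intermediate-conductance calcium-activated channel of lymphocytes, red cells and many dividing cells, read 8.66, 9.75 and 9.37 in the parental culture and 8.53, 8.10 and 7.58 in the spheroid culture. It read 9.07, 8.99 and 9.05 in the parental xenografts and 8.37, 7.54 and 7.49 in the spheroid xenografts. The spheroid arrays lay below the parental arrays in culture and in the tumours, with no overlap in either. The difference was -1.19 (SE 0.31, limma adjusted p = 0.0734) in culture and -1.24 (SE 0.31, adjusted p = 0.180) in the tumours, so neither passed. The culture difference was called in 8 of 26 alternatives, among them those without parental culture 1 and without spheroid culture 1. With the replicate number as a block and only the tumour arrays in the fit, the tumour difference had an adjusted p of 0.0323. The interaction was -0.04 with a 95% interval from -1.01 to 0.92.

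KCNMA1, the pore of the large-conductance channel opened by calcium and voltage, read 8.36, 10.38 and 9.67 in the parental culture and 8.05, 7.41 and 7.46 in the spheroid culture. It read 6.98, 6.60 and 8.57 in the parental xenografts and 8.44, 7.23 and 7.27 in the spheroid xenografts. The parental culture stood above the spheroid culture, and parental xenograft 3 lay above parental culture 1. Its difference was -1.84 (SE 0.56, limma adjusted p = 0.125) between the cultures and -2.09 (SE 0.56, adjusted p = 0.0687) from parental culture to xenograft. Neither passed, and over all processing alternatives the second ran from -2.68 to -0.31. It was called in 8 of 26 alternatives, among them those without parental culture 1 and without parental xenograft 3 (adjusted p = 0.0212 and 0.0259). The value of -0.31 came with another of its probe sets, without those ending in _s_at or _x_at: of 4 probe sets the other 3 lay above background in no group.

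KCNMB4, an auxiliary subunit that slows the KCNMA1 channel, read 7.90, 8.14 and 8.51 in the parental xenografts and 6.58, 6.30 and 7.51 in the spheroid xenografts. In culture it read 8.13, 8.13 and 7.51 in the parental and 8.98, 7.55 and 7.06 in the spheroid arrays. The tumour groups did not overlap and the culture groups did. The tumour difference was -1.38 (SE 0.44, limma adjusted p = 0.323), and with the replicate block over the tumour arrays alone the adjusted p was 0.0219. The sodium-activated channel KCNT1 was above background in 3 groups, with means from 6.95 to 7.07.

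Among the silent subunits, which do not form channels alone and alter KCNB channels, KCNG3 read 7.42, 7.76 and 7.84 in the parental xenografts. It read 6.43, 7.12 and 5.72 in the parental culture, 6.60, 6.30 and 6.51 in the spheroid culture and 6.05, 6.39 and 7.03 in the spheroid xenografts. Every parental xenograft exceeded every other array. The difference was 1.25 (SE 0.32, limma adjusted p = 0.0563) from parental culture to xenograft and -1.18 (SE 0.32, adjusted p = 0.213) between the tumours, so neither passed. The low groups were not above background by the rule, though parental culture 2 and spheroid xenograft 3 read above it. With the background level in place of lower readings, the mean of KCNG3 was 1.59-fold higher in the parental xenografts than in the parental culture. It was 1.72-fold higher than in the spheroid xenografts. These folds make no allowance for the spread of the arrays. The first was called in 8 of 26 alternatives, among them the one without parental culture 2 (adjusted p = 0.00639). They include the fit to only genes above background, a set that KCNG3 joined through the parental xenografts alone. With the replicate block over the tumour arrays alone the second had an adjusted p of 0.0219. A second KCNG3 probe set lay between 4.65 and 5.19, under background on every array.

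KCNF1 read 7.04, 6.94 and 6.87 in the parental xenografts, just over the background of those arrays. Its other group means were 6.47, 6.59 and 6.58 in the parental culture, spheroid culture and spheroid xenografts. The difference from parental culture to xenograft was 0.48 (SE 0.22, limma adjusted p = 0.360). KCNS1 was above background only in the spheroid xenografts, at 7.09 ± 0.18 (SD, n = 3), and its means in the other groups ran from 6.81 to 7.04. For KCNF1 and KCNS1 the count by group thus turned on differences smaller than the SD of some groups.

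Among the voltage-gated pore subunits, KCNQ5, of the family that carries the M-current of neurons, read 7.81, 9.17 and 7.56 in the parental culture and 6.96, 6.89 and 7.50 in the spheroid culture. It read 7.03, 7.32 and 8.68 in the parental xenografts and 7.90, 7.71 and 8.06 in the spheroid xenografts. The cultures did not overlap, though their nearest arrays read 7.56 and 7.50. As for KCNMA1, parental culture 2 and parental xenograft 3 read highest in their groups, and these arrays had interquartile ranges of 3.44 and 3.29; the part of this width was not tested. The culture difference was -1.07 (SE 0.45, limma adjusted p = 0.295). From spheroid culture to xenograft the groups did not overlap, with a difference of 0.77 (SE 0.45, adjusted p = 0.795). With the replicate block over the spheroid arrays alone the adjusted p was 0.0255.

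KCND1, a pore subunit of rapidly inactivating currents, was chosen for description after its values were seen. It read 6.74, 6.13 and 6.60 in the parental xenografts and between 5.50 and 5.93 on the other 9 arrays. The tumour difference was -0.76 (SE 0.17, limma adjusted p = 0.111) and the difference from parental culture 0.61 (SE 0.17, adjusted p = 0.0768), so neither passed. It exceeded background on 1 of 12 arrays. It was 1 of 9 KCN genes (10.3%) with their highest group mean in the parental xenografts, as 19.0% of all genes had; KCNJ2, KCNG3, KCNF1 and KCNMB4 were among the 9.

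Among the auxiliary subunits, KCNAB2 binds voltage-gated KCNA channels on the cytoplasmic side. It was above background only in the spheroid culture, where it read 7.25, 7.47 and 6.99. In the spheroid xenografts only spheroid xenograft 2 fell short (6.89 against a background of 6.94). In the parental xenografts only parental xenograft 1 did (6.82 against 6.89). The parental culture read 6.48, 6.13 and 7.13, with overlap, and the difference was 0.66 (SE 0.24, limma adjusted p = 0.222). KCNAB1 was also above background only in the spheroid culture, at 7.10 ± 0.19 (SD, n = 3) against 6.87 ± 0.60 in the parental culture. In the parental xenografts KCNAB1 fell short only on parental xenograft 3 (6.43 against a background of 6.45). KCNIP3, a calcium sensor, had means from 7.16 to 7.45.

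**Figure D4:**
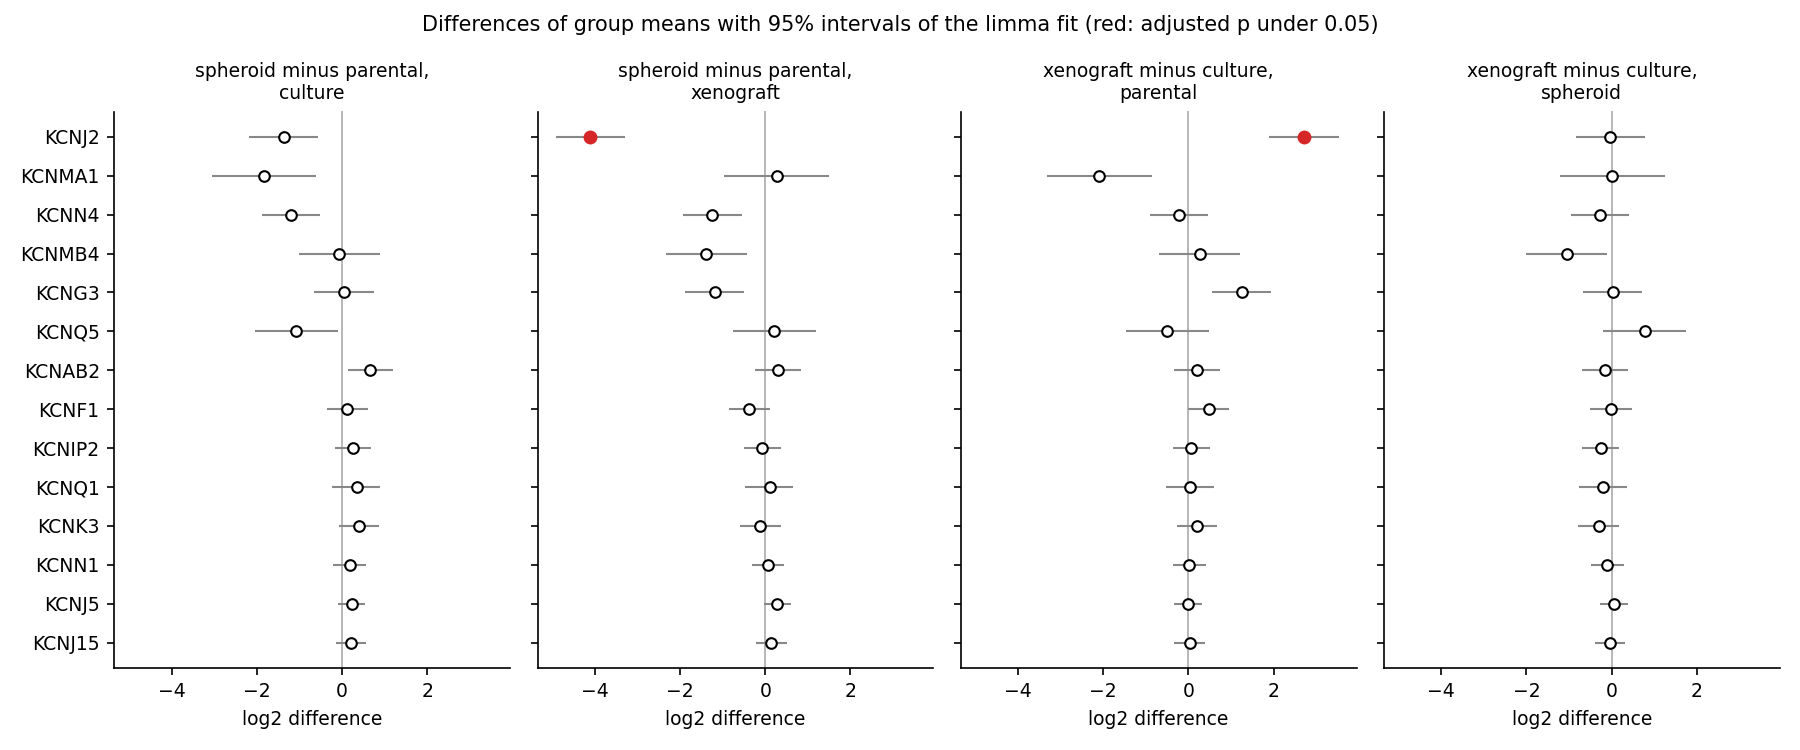
Differences of group means (log2, horizontal axis) of the named KCN genes (vertical axis) in the 4 comparisons of groups, with 95% intervals of the limma fit. Filled red points mark an adjusted p under 0.05, which only KCNJ2 reached, between the tumours (-4.11) and from parental culture to xenograft (2.70).

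Other genes that set potassium gradients or work with the channels were read from 6 lists. Of 14 pump genes measured, FXYD5, a regulator of the sodium-potassium pump, fell by 1.69 from parental to spheroid culture (SE 0.30, limma adjusted p = 0.0141) and fell by 1.65 from parental culture to xenograft (SE 0.30, adjusted p = 0.0124). ATP12A, a proton-potassium pump, rose by 1.03 in the spheroid culture (SE 0.24, limma adjusted p = 0.0453), to a mean of 7.34 that was not above background on all 3 arrays. None of the 14 was called between the tumours, where KCNJ2 differed. The list named 18 pump genes, and those measured held no ATP1A gene, the catalytic subunit of the sodium-potassium pump. Of 8 scaffold genes, which hold inward rectifiers at the membrane, LIN7A fell by 1.57 from parental culture to xenograft (SE 0.34, adjusted p = 0.0288), from a mean of 6.35 to 4.78, and no other was called; LIN7A was above background in no group. None of 8 partner subunits, 8 cation chloride cotransporters, 8 HCN and cyclic nucleotide-gated channels and 3 intracellular potassium channels was called in any of the 5 comparisons.

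Markers of cells that a tumour can take in were read beside KCNJ2, since muscle, vessel and nerve cells express it. Fewer cells of a type and less RNA per cell cannot be told apart in these samples. The arrays hold probe sets for human genes, and the labels name no host. RNA from a host of another species would be read only in part, so low or even values do not show that such cells were few. COL3A1, a collagen of fibroblasts, was the 1 of 6 fibroblast markers called from parental culture to xenograft, where it rose by 2.06 (SE 0.37, limma adjusted p = 0.0126). It was above background in no group by the rule of all 3 arrays, so the size is read from a base under background. COL3A1 read 7.71, 7.88 and 6.28 in the parental xenografts and 6.41, 6.14 and 7.27 in the spheroid xenografts. COL1A2, another of the 6, read 7.12, 7.10 and 6.03 in the parental xenografts and from 5.87 to 6.52 in the spheroid xenografts. It was not called. Parental xenograft 3 read lowest of its group in KCNJ2 and in each of the 6 markers except DCN. This array also had the lowest background of all arrays (6.45) and the widest interquartile range of its group (3.29). Of the markers, LUM and PDGFRA lay under background on every array. The part of the array's width in these low readings was not tested. The tumours overlapped in COL3A1 and COL1A2 and not in KCNJ2. The mean of the 6 markers ran from 6.18 to 6.79 in the parental and from 6.28 to 6.39 in the spheroid xenografts. None of 5 macrophage markers lay above background in any group. Of 6 skeletal muscle markers 1, TNNT3, did so, in all 4 groups, and the mean of the 6 ran from 5.31 to 5.53 in the parental and from 5.45 to 5.64 in the spheroid xenografts. The mean of 6 endothelial markers ran from 5.34 to 5.69 and from 5.46 to 5.74, with PECAM1 above background in both kinds of tumour and in the spheroid culture, and TEK in the spheroid culture alone. RGS5, 1 of 6 mural cell markers, differed by -1.44 between the tumours (SE 0.47, limma adjusted p = 0.338). ACTA2 (-0.37) and PDGFRB (-0.11) were also lower in the spheroid xenografts, while MYH11 (0.14), CSPG4 (0.13) and DES (0.11) were higher. The median difference of the 6 was 0.001, and their mean ran from 6.46 to 6.63 in the parental and from 6.19 to 6.43 in the spheroid xenografts. Of 6 neuronal markers 4 lay above background in both kinds of tumour, and 3 of them also in both cultures; their mean ran from 8.49 to 8.76 in the parental and from 8.31 to 8.55 in the spheroid xenografts. Their largest tumour difference was that of SYT1, a synaptic vesicle protein, which read 8.53, 8.60 and 8.28 in the parental and 7.49, 7.41 and 7.64 in the spheroid xenografts. These groups did not overlap, in the direction of KCNJ2, and the difference of -0.96 did not pass (SE 0.40, limma adjusted p = 0.583). SYT1 read 8.59 in parental culture 2 and from 6.53 to 6.85 on the other 5 culture arrays. Among the line's own markers, KRT8 and KRT18 moved the other way from KCNJ2 in the parental arm. From culture to xenograft KRT8 fell by 1.77 (SE 0.24, limma adjusted p = 0.00278) and KRT18 fell by 1.71 (SE 0.34, adjusted p = 0.0191). VIM rose by 0.52 (SE 0.21, adjusted p = 0.251), and keratin 19 (KRT19), under background on every array, differed by 0.05 (SE 0.16, adjusted p = 0.977). KRT8 also fell by 1.43 from parental to spheroid culture (SE 0.24, adjusted p = 0.0109), and no keratin of the list was called between the tumours. No marker of these lists was called between the tumours. The part of other cells in the KCNJ2 levels was not tested.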

How the data were processed

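RNA (2 micrograms a sample) of 12 samples in 4 groups of 3 was hybridised to Affymetrix U133 Plus 2.0 arrays, per the labels' protocols. The deposited values are log2 expression of 54675 probe sets, which the authors made with RMA (affy, an R package), according to the labels and per the submitters' processing notes. RMA shares a quantile normalisation over the arrays run together, so it can shrink shifts of the whole array, and the labels do not say whether all 12 were run together. The number of arrays limits the precision.

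Of the probe sets, 41097 carried 1 gene symbol in the platform annotation of 2016, 1801 several and the others none; 41043 were matched to a current gene by gene number. All 87 KCN genes (170 probe sets) matched. The KCN genes and the other lists were chosen with earlier results of these data known. Group means were fitted with limma 3.58.1 in R 4.3.3 (lmFit and eBayes, 8 residual degrees of freedom), and the fit was tested on simulated data. Genes named were KCNJ2, those called, those above background on all 12 arrays, the 8 with the largest differences among genes above background, and called genes or the largest difference of each other list; further KCN genes are named as examples of a class or because a count held them, and were chosen after their values were seen. Same-numbered arrays deviated together between the tumour groups (correlations of 0.18, 0.21 and 0.48) and between spheroid culture and xenograft (0.34, 0.33 and 0.43), and did not between the cultures (0.33, -0.24 and -0.30) or in the parental arm (0.19, -0.45 and -0.43). The fit without a replicate block was the one reported. Alternatives changed the normalisation, the probe set, the genes and arrays in the fit, the block, array weights, the variance model and the background level. Folds against background used the higher of the background and the gene's own value on each low array. Promoters came from a RefSeq table for GRCh38.p14.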

Additional observations from a re-analysis of the deposited data

How the results depend on the processing

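KCNJ2 kept its direction in both called comparisons under all 26 alternatives, between -4.63 and -3.73 for the tumours and between 2.39 and 3.23 for the parental arm. The call was lost 1 time in each. The tumour difference was -3.73 (limma adjusted p = 0.0501) without the narrowest array of each group, which leaves fewer arrays. The parental rise was 2.70 (adjusted p = 0.0590) with only the 6 arrays compared. The culture difference passed with cyclic loess (-1.47), the replicate block (-1.37, adjusted p = 0.0274) and array weights (-1.07). The interaction passed with cyclic loess (-2.67), only genes above background and the replicate block (both -2.74), array weights (-3.32) and without the widest arrays (-3.26). KCNJ2 was among the genes above background through the parental xenografts alone, so that alternative lends the interaction no separate support. The spheroid-arm difference of -0.03, which no fit called, changed sign to 0.01 with repeated quantile normalisation and with median centring, 0.04 with cyclic loess and 0.10 without the narrowest arrays. The cause was not tested. The alternatives without the widest or narrowest arrays, and with the block over only the arrays compared, were chosen after seeing the data.

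Leaving out each array in turn gave KCNJ2 differences from -1.56 to -1.13 in culture, -4.63 to -3.79 between tumours, 2.39 to 3.22 in the parental arm, -0.18 to 0.05 in the spheroid arm and -3.25 to -2.42 for the interaction. KCN genes called then numbered 0 to 2 in culture, 1 between tumours, 1 to 2 in the parental arm, 0 in the spheroid arm and 0 to 1 for the interaction, and 20 to 21 lay above background. Of the 87, 1 gene is 1.15% and 2 are 2.30%. The share of all genes called ran from 0.389% to 4.31% in culture, 0.0202% to 0.708% between tumours and 1.25% to 8.05% in the parental arm. It ran from 0.00506% to 0.288% in the spheroid arm and from 0.0101% to 0.941% for the interaction.

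In culture, where no KCN gene was called, 1 was called with either quantile alternative, with only genes above background or without the narrowest arrays (KCNN4 in each). With the replicate block 1 was called (KCNJ2). Where all 87 were tested this 1 was 1.15%, against 2.25% to 5.54% of all genes. There were 2 with cyclic loess (2.30%, against 4.91%) and 3 with array weights (3.45%, against 10.6%). Between tumours 4 were called with the replicate block over the arrays compared (KCNG3, KCNJ2, KCNMB4 and KCNN4, 4.60%, against 2.48% of all genes). There were 5 with array weights (5.75%, against 6.10%) and 0 without the narrowest arrays, against 0.0253%. In the parental arm 3 were called with either quantile alternative, only genes above background, array weights or without the widest arrays (KCNG3, KCNJ2 and KCNMA1 in each). In the alternatives that tested all 87 these were 3.45%, against 5.02% to 11.8% of all genes. KCNG3 and KCNJ2 were among the genes above background through the parental xenografts alone, so that alternative lends their calls no separate support. There were 2 (2.30%) with cyclic loess, the mean of all probe sets or a trended robust variance, against 5.52%, 3.26% and 2.94% of all genes. With only the arrays compared there were 0, against 0.349%. In the spheroid arm 1 was called with the replicate block over the arrays compared (KCNQ5; 1.15%, against 2.99% of all genes) and 2 with array weights (KCNK12 and KCNMB4; 2.30%, against 4.63%). For the interaction 1 was called with cyclic loess, only genes above background, the replicate block or without the widest arrays (KCNJ2 in each), and 3 with array weights (3.45%, against 4.53%). Where all 87 were tested this 1 was 1.15%, against 0.0607% to 0.475% of all genes. The alternative with only genes above background lends the KCNJ2 interaction no separate support, since KCNJ2 entered it through the parental xenografts. Of the other named genes no difference changed sign. The 20 KCN genes above background became 0 with the 99th percentile and 35 with the array median. Most KCN genes read near background, which limits what these arrays show of them.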

Other observations

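The transcripts left out of the set were read on their own probe sets, with p-values adjusted over all probe sets. KCNJ2-AS1, the antisense neighbour of KCNJ2, read between 3.56 and 4.07 on the 12 arrays, under background on each, including the parental xenografts in which KCNJ2 was high. KCNJ5-AS1 had means of 4.95 in the parental culture, 5.71 in the spheroid culture, 5.40 in the parental xenografts and 6.59 in the spheroid xenografts. Its tumour groups did not overlap (6.14, 6.39 and 7.24 against 5.38, 5.27 and 5.55), and the difference of 1.19 did not pass (limma adjusted p = 0.221). KCNJ5 itself differed by 0.28 between the tumours (SE 0.15, limma adjusted p = 0.809). Of 3 probe sets shared by KCNJ12 and KCNJ18, inward rectifiers close in sequence to KCNJ2, 1 was lower in the parental xenografts than in the parental culture, with means of 4.78 and 5.47 (difference -0.69, limma adjusted p = 0.0428), both within the background range.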
